A study of Mus musculus with 13 samples.

Results

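TRAV8 clonotypes are T cell receptor (TCR) α chains whose variable segment was assigned to 1 of the 5 genes of the mouse TRAV8 family. They were taken here from rescued regulatory T (Treg) cells as all functional clonotypes (a CDR3 without a stop codon or frameshift) with the number 8 directly after TRAV in the V name, so that the 27 TRAV18 clonotypes were left out. This gave 2238 TRAV8 clonotypes of 78521 functional clonotypes summed over 13 samples, or 2.85%. Every sample came from male C57BL/6 mice of genotype Foxp3LSL/y Cd4creERT2, in which a stop cassette silenced Foxp3, the lineage factor of Treg cells, until a tamoxifen-activated Cre driven by Cd4 removed it. At postnatal day 14, a single dose of the tamoxifen metabolite 4-hydroxytamoxifen (4-OHT) restored Foxp3 with a GFP reporter, and GFP+ Thy1.1- CD4+ T cells were sorted from spleen and lymph node. Samples were taken 1.5 months (n = 2, mice 8 weeks old), 3 months (n = 4, 3.5 months old), 5 months (n = 2, 5.5 months old) and 7 months (n = 5, 7.5 months old) after 4-OHT. All groups shared the deletion and the treatment, and no Treg cells that had never lost Foxp3 were among the samples, so the values describe rescued cells over time and no other kind of Treg cell. Since Cre acted on whichever cells expressed Cd4 at the time of the dose, the sorted cells derive from that labelled cohort. The labels do not say whether samples of a group came from separate mice, and p-values then measure only the spread between these samples.

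An α chain is assembled in the thymus by joining 1 V segment to 1 J segment, with bases trimmed from both ends and random bases inserted between them. The junction encodes CDR3, the loop that lies over the peptide in the MHC groove, whereas the loops CDR1 and CDR2 come from the V segment alone. The locus rearranges repeatedly: early joins use V segments near the J cluster and J segments at its 5′ end, and later joins replace them with V segments farther upstream and J segments farther downstream. In the C57BL/6 strain the upstream V region is duplicated, and the letters D and N in a V name mark genes of the duplicated blocks.

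The 5 genes lie on the plus strand of chromosome 14 (GRCm38, GENCODE annotation) in the order TRAV8D-1 (chr14:52778447-52778995), TRAV8D-2 (chr14:53042428-53042891), TRAV8N-2 (chr14:53345890-53346424), TRAV8-1 (chr14:53469756-53470232) and TRAV8-2 (chr14:53738375-53738838). TRAV8D-1 is 1376 kb and TRAV8-2 is 416 kb upstream of the first J segment. The annotation calls the first 4 functional V genes and TRAV8-2 a pseudogene. The 3′ ends of the V exons are shown because they contain the bases that enter CDR3, which are in capitals, and because they show how little separates the genes there. They were read from the annotated transcripts.
TRAV8-1: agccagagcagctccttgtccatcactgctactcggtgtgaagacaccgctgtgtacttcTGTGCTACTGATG
TRAV8N-2: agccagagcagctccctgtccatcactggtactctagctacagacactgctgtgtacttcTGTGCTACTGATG
TRAV8D-2: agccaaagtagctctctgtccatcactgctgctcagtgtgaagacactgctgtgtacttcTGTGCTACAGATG
TRAV8-2: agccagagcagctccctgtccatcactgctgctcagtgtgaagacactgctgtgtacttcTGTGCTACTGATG
All 5 genes give CDR3 a germline part of 13 bases, which encode Cys-Ala-Thr-Asp and the first base of the next codon. TRAV8D-2 alone differs in these 13 bases. The end of TRAV8D-1 is identical to that of TRAV8-1, and the 2 genes differ at 3 of the last 270 bases and at 0 of the last 100. Of the 2238 clonotypes, 1848 (82.6%) began with Cys-Ala-Thr and 757 (33.8%) with Cys-Ala-Thr-Asp.

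Functional counts per sample ranged from 477052 to 882170, and 131 to 238 TRAV8 clonotypes were found per sample. TRAV8 was the 10th most frequent of the 19 V families with at least 200 clonotypes. There were 2 pairs of libraries that stood apart by the share of nucleotide clonotypes they had in common. For TRAV8, 3 months replicate 4 shared 22 clonotypes with 5 months replicate 1 and 22 with 1.5 months replicate 1, which are 6.96% and 6.13% of the clonotypes of each pair, while the median over all 78 pairs was 1.43%. Counts of CDR3 amino-acid sequences shared between samples are therefore given with and without 3 months replicate 4.

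Use of the single genes was uneven. TRAV8-1 held 788 clonotypes, TRAV8N-2 602, TRAV8D-2 463, TRAV8D-1 309 and TRAV8-2 76. As a share of the TRAV8 clonotypes of a sample, TRAV8-1 took 34.9% ± 5.53 (SD, n = 13), with a lowest value of 23.7%, a median of 35.6% and a highest value of 45.0%. TRAV8N-2 took 27.1% ± 3.14, TRAV8D-2 20.7% ± 2.56 and TRAV8D-1 13.8% ± 3.49 (SD, n = 13 for each). The ranges of TRAV8-1 (23.7% to 45.0%) and TRAV8N-2 (21.8% to 34.3%) overlapped, and both overlapped that of TRAV8D-2 (17.5% to 26.6%), which overlapped that of TRAV8D-1 (8.39% to 21.8%). TRAV8-2 took 3.34% ± 2.00 (SD, n = 13), from 0% in 5 months replicate 2 to 8.33% in 7 months replicate 3, and it was below every other TRAV8 gene in every sample. In 5 months replicate 2 its 0 of 131 clonotypes were in a library where 3 counts are 5.55e-04% of the functional counts.

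**Figure D1:**
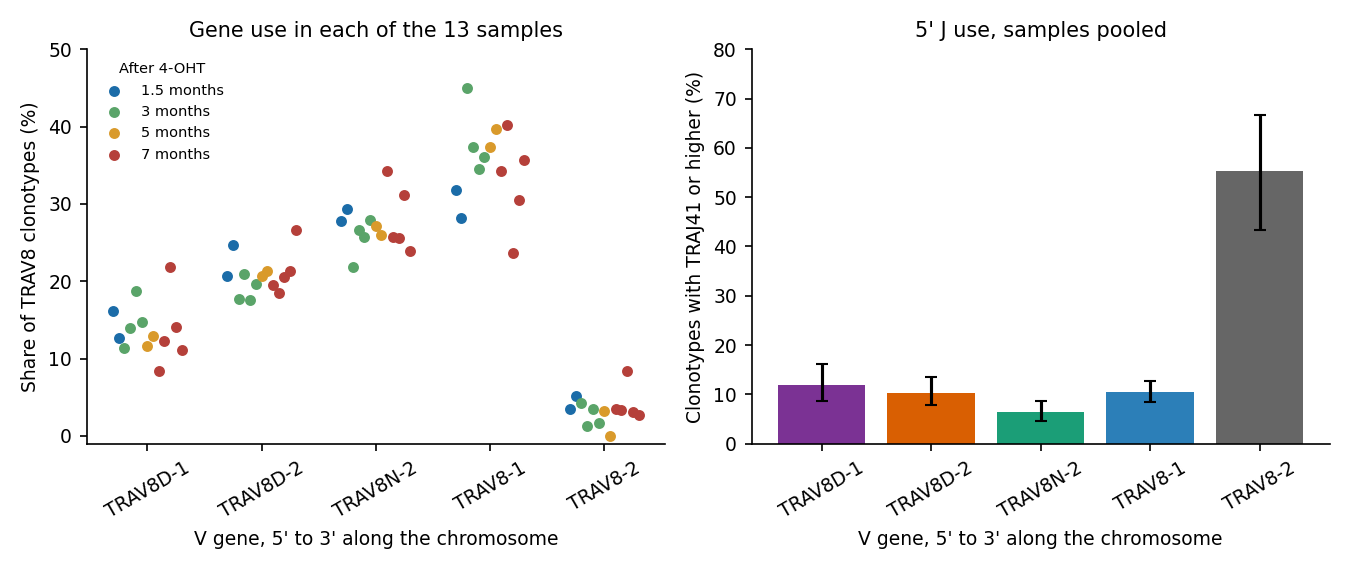
Left, share of the TRAV8 clonotypes of a sample (%) held by each gene, 1 point per sample, coloured by time after 4-OHT; right, share of the clonotypes of each gene joined to TRAJ41 or a higher-numbered J (%), all samples pooled, with exact 95% binomial intervals. TRAV8-1 had the highest mean share (34.9%) and TRAV8-2 the lowest (3.34%), while 55.3% of TRAV8-2 clonotypes used a 5′ J.

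The gene name went with how much of the V end was left in CDR3, and whether the name or the junction set this was not tested. TRAV8D-1 clonotypes had a mean of 13.8 CDR3 bases from V and TRAV8-1 clonotypes 9.71. Among clonotypes of the 2 names whose V part was 12 bases or shorter, 60 were called TRAV8D-1 and 697 TRAV8-1 (7.93% TRAV8D-1). Where it was 13 bases or longer, 249 were called TRAV8D-1 and 91 TRAV8-1 (73.2%). Since the genes are identical over this stretch, reads there cannot tell them apart, and the division between the 2 names is uncertain. The V part also ended past the 13 germline bases in 403 of the 2238 clonotypes (18.01%), and in 53.4% of those named TRAV8D-1.

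Names also changed between samples. Of 251 TRAV8 nucleotide CDR3 sequences (with their J) found in 2 or more samples, 84 (33.5%) carried more than 1 TRAV8 name, and in 50 of these the names were TRAV8-1 and TRAV8N-2. A name of another V family was given in some sample to 93 of the 1903 distinct TRAV8 sequences (4.89%). Single-gene values below are values of the deposited names.

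**Figure D2:**
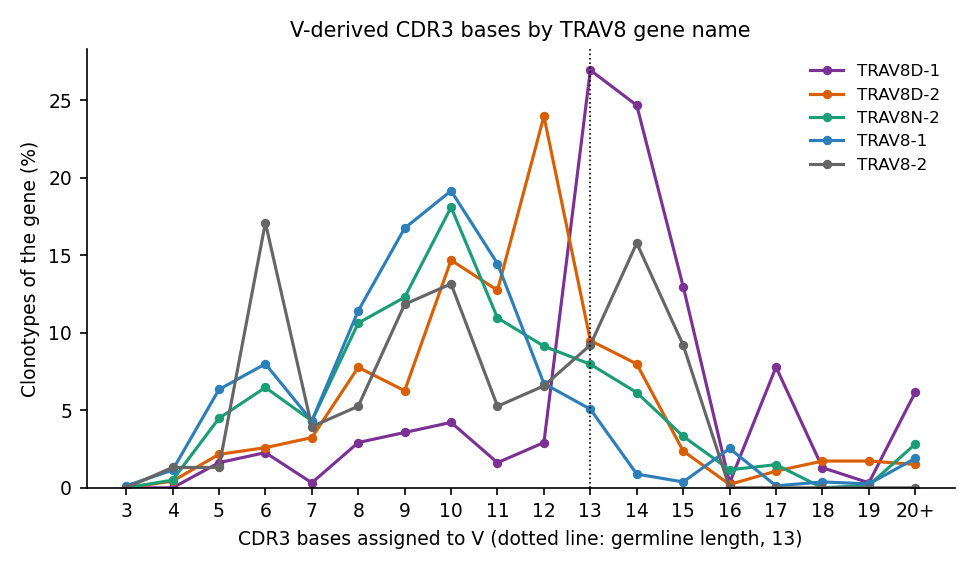
Share of the clonotypes of each TRAV8 gene name (%) against the number of CDR3 bases assigned to V, all samples pooled; the last position stands for 20 or more bases and the dotted line for the 13 germline bases. The TRAV8D-1 curve lies to the right of the others (mean 13.8 bases) and the TRAV8-1 curve to the left (mean 9.71 bases).

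TRAV8-2, the gene nearest to the J cluster, stood apart from the other 4. Its annotated transcript differs from that of TRAV8D-2 at 19 of 337 bases, the first of which is the substitution A1C in the start codon, counted from the first transcript base. The first 20 bases are shown with that codon in capitals.
TRAV8D-2: ATGaacagattcctgggaat
TRAV8-2: CTGaacagattcttgggaat
The TRAV8-2 transcript has 0 stop codons in frame. Non-functional clonotypes made up 90 of its 166 (54.2%), against 14.9% for TRAV8-1, 19.9% for TRAV8D-1, 9.20% for TRAV8N-2, 7.77% for TRAV8D-2 and 13.04% for all other V genes. Of its 76 functional clonotypes, 42 (55.3%, exact 95% binomial interval 43.4 to 66.7) used a J segment numbered 41 or higher, the 5′ part of the J cluster. The same share was 11.97% (8.57 to 16.1) for TRAV8D-1, 10.4% (8.36 to 12.8) for TRAV8-1, 10.4% (7.74 to 13.5) for TRAV8D-2 and 6.48% (4.65 to 8.75) for TRAV8N-2. In the 12 samples with any TRAV8-2 clonotype, between 2 and 13 were found, and 5′ J use ranged from 0% in 3 months replicate 2 to 100% in 7 months replicate 4. These intervals pool the samples and cover counting error only. Its leading J partners were TRAJ48 (10 clonotypes), TRAJ45 (8) and TRAJ56 (6), none of which was among the 4 leading partners of another TRAV8 gene.

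The next question was whether the genes differed in the junctions they formed. TRAV8-1, TRAV8N-2 and TRAV8D-2 had at least 20 clonotypes in every sample and were compared pairwise within samples by exact sign-flip permutation tests (two-sided, n = 13, 6 tests, Benjamini-Hochberg adjusted). The mean CDR3 length was 12.6 ± 0.167 residues for TRAV8-1, 13.05 ± 0.251 for TRAV8N-2 and 13.3 ± 0.270 for TRAV8D-2 (SD, n = 13). TRAV8-1 was shorter than TRAV8N-2 by 0.405 ± 0.225 residues and than TRAV8D-2 by 0.666 ± 0.377, in 13 of 13 samples each (adjusted exact p = 7.32e-04 for both). TRAV8D-2 was longer than TRAV8N-2 by 0.261 ± 0.384 residues in 10 of 13 samples (adjusted exact p = 0.0300). This call was lost when any 1 of 6 samples was left out (1.5 months replicate 2, 3 months replicates 1 and 4, and 7 months replicates 1, 3 and 5), with adjusted exact p from 0.0542 to 0.0601. Use of 5′ J segments was higher in TRAV8-1 than in TRAV8N-2 by 4.24 ± 4.49 percentage points in 12 of 13 samples (adjusted exact p = 0.0166). Among clonotypes with at least 2 counts this difference was 2.77 points and passed (adjusted exact p = 0.0337). The remaining 2 comparisons of 5′ J use did not pass, with a difference of 0.150 ± 8.998 points between TRAV8-1 and TRAV8D-2 (adjusted exact p = 0.951) and of 4.09 ± 6.75 between TRAV8D-2 and TRAV8N-2 (adjusted exact p = 0.0618). The latter passed without 3 months replicate 2 (adjusted exact p = 0.0270), 5 months replicate 1 (0.0451) or 5 months replicate 2 (0.0410). Because the name moved with the V bases left in CDR3, and those bases are part of its length, the length differences are not independent of the naming.

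TRAV8 clonotypes had short CDR3 loops. Their mean CDR3 length was 13.001 ± 0.0914 residues, against 13.51 ± 0.0237 in the clonotypes of all other V families (SD, n = 13). The difference was -0.509 ± 0.0986 residues, and TRAV8 was shorter in 13 of 13 samples, by 0.346 to 0.680 residues (exact sign-flip permutation test, two-sided, p = 2.44e-04, the smallest that 13 samples allow, and 4.88e-04 adjusted over the 8 measures compared this way). Of the 19 V families TRAV8 had the lowest mean, next to TRAV13 at 13.03. Loops of 11 residues or fewer made up 9.98% ± 2.82 of TRAV8 clonotypes and 5.33% ± 0.423 of the others, and loops of 16 residues or more 2.21% ± 1.11 and 5.85% ± 0.498 (SD, n = 13). TRAV8 had more short loops in 13 of 13 samples and more long loops in 0 of 13.

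**Figure D3:**
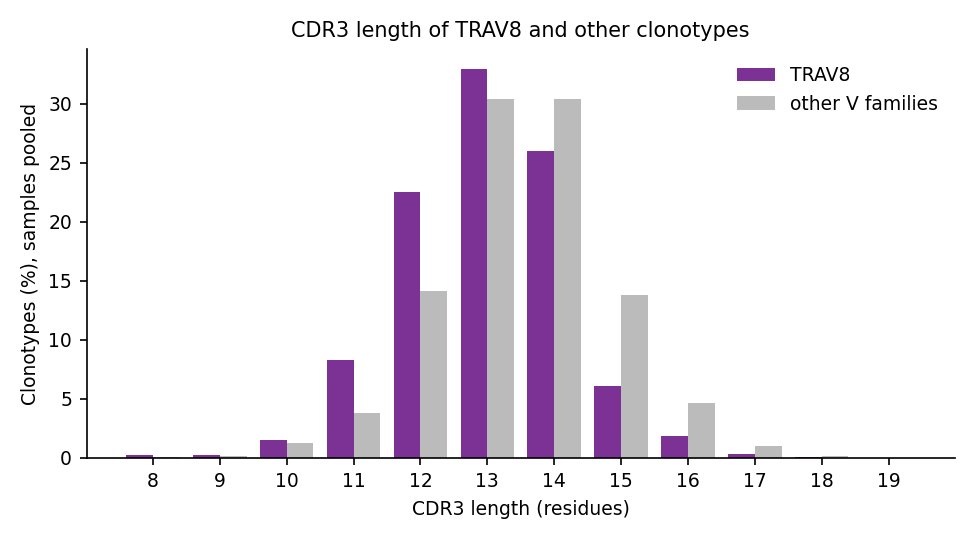
Share of clonotypes (%) by CDR3 length in residues for TRAV8 (2238 clonotypes) and for all other V families, samples pooled. TRAV8 peaks at 13 residues (33.0%), and its share is above that of the others from 8 to 13 residues and below from 14 on.

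Counted by the deposited V end, the missing bases were on the V side. That end lay past the 13 germline bases in 403 of the 2238 TRAV8 clonotypes (18.01%), and bases past the germline end were counted as V. V-derived, inserted and J-side bases are therefore values of the deposited positions, not of the germline segments. TRAV8 clonotypes had 10.9 ± 0.305 CDR3 bases from V and the others 12.3 ± 0.0446 (SD, n = 13), a difference of -1.39 ± 0.313 bases that was negative in 13 of 13 samples (adjusted exact permutation p = 4.88e-04). The whole CDR3 was shorter by 1.53 bases. Bases on the J side differed by -0.0163, from 26.04 ± 0.231 to 26.06 ± 0.0600 (SD, n = 13), a difference that was not tested. Inserted bases made up the rest, with 2.05 ± 0.140 in TRAV8 and 2.17 ± 0.0483 in the others. This difference of -0.121 ± 0.143 bases was negative in 11 of 13 samples (adjusted exact permutation p = 0.0150). Junctions with no inserted base by these positions were 34.3% ± 4.26 of TRAV8 clonotypes and 30.8% ± 0.968 of the others. The share was higher in TRAV8 in 10 of 13 samples (difference 3.52 ± 4.26 points, adjusted exact permutation p = 0.0150). Among clonotypes with at least 2 counts the difference in inserted bases was -0.0652 and did not pass (adjusted exact permutation p = 0.210). In both measures TRAV8 was in the middle of the families, 11th and 10th of 19 from the highest.

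The net charge of CDR3 (Lys and Arg minus Asp and Glu) was lower in TRAV8 than over the other families together. It was 0.380 ± 0.0805 in TRAV8 and 0.722 ± 0.0107 in the others (SD, n = 13), with a difference of -0.342 ± 0.0790 that was negative in 13 of 13 samples (adjusted exact permutation p = 4.88e-04). TRAV8 was 5th from the lowest of the 19 families, and the lowest was TRAV15 at -0.151. The germline TRAV8 end encodes an aspartate, an acidic residue, at the 4th CDR3 position. TRAV8D-1, in which 69.3% of clonotypes began with Cys-Ala-Thr-Asp, had a mean charge of -0.194, TRAV8D-2 (47.3%) had 0.341, TRAV8N-2 (25.9%) had 0.487 and TRAV8-1 (18.02%) had 0.594. These values pool the samples and were not tested, and they are not independent of each other, since the aspartate is counted in the charge and the gene name moved with the V bases left in CDR3. TRAV8-2 was out of this order of genes, with 34.2% and a mean charge of 0.0526.

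The J partners of TRAV8 were shifted away from the 5′ end of the J cluster. J segments numbered 41 or higher made up 10.9% ± 3.04 of TRAV8 clonotypes and 19.1% ± 0.788 of the others (SD, n = 13), a difference of -8.17 ± 3.14 points that was negative in 13 of 13 samples (adjusted exact permutation p = 4.88e-04). Without TRAV8-2, an alternative chosen after the data were seen, it was -9.71 ± 3.20 points. Since 55.3% of TRAV8-2 clonotypes used a 5′ J, that removal was bound to widen the difference. TRAV8 was 4th from the lowest of the 19 families, whose means ran from 0.831% in TRAV1, at the upstream end of the locus, to 85.0% in TRAV21, near the J cluster.

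Clonotype numbers per J gene were then compared between TRAV8 and all other clonotypes of the same samples with edgeR's quasi-likelihood test. Of 43 J genes tested, 14 (32.6%) passed an adjusted p of 0.05, 4 higher and 10 lower in TRAV8, 22 passed an unadjusted p of 0.05, and DESeq2 called 15, among them 12 of the 14. In the same test each of the other 18 families had between 1 (TRAV16) and 38 (TRAV17 and TRAV21) called J genes, so a biased J use was not particular to TRAV8. The 4 J genes that were more frequent lie close together in the middle of the cluster (TRAJ22, TRAJ23, TRAJ24 and TRAJ27), and 7 of the 10 that were less frequent are numbered 43 or higher.

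TRAJ22 (chr14:54197248-54197307) took 6.60% ± 2.36 of TRAV8 clonotypes per sample, from 2.79% to 11.5% with a median of 6.72%, and 3.94% ± 0.272 of the others (SD, n = 13). It was higher in TRAV8 in 11 of 13 samples, and its log2 fold difference was 0.75 (SE 0.167, edgeR adjusted p = 4.26e-04). TRAJ24 had a log2 fold difference of 0.73 (SE 0.290, adjusted p = 0.0445), a value above that of TRAJ22 in some alternatives (0.81 against 0.69 with at least 2 counts), TRAJ23 of 0.55 (SE 0.169, adjusted p = 0.0146) and TRAJ27 of 0.52 (SE 0.168, adjusted p = 0.0146). These calls differed in stability. TRAJ24 was carried by 37 TRAV8 clonotypes and passed in 9 of the 19 alternative settings, with adjusted p from 0.0220 to 0.109. DESeq2 called neither TRAJ24 (adjusted p = 0.0685) nor TRAJ27 (adjusted p = 0.0539). Without 5 months replicate 1, edgeR's adjusted p was 0.0774 for TRAJ27 and 0.0616 for TRAJ23, and among clonotypes with at least 2 counts TRAJ23 had 0.0677.

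At the other end, TRAJ57 (chr14:54158505-54158569) was found in 5 TRAV8 clonotypes. It took 0.230% ± 0.396 of TRAV8 clonotypes, with a median of 0% and a highest value of 1.22%, against 1.53% ± 0.123 of the others (SD, n = 13). It was lower in TRAV8 in every sample, and the log2 fold difference was -2.72 (SE 0.496, edgeR adjusted p = 1.81e-05). TRAJ47 (log2 fold difference -1.71, SE 0.550, adjusted p = 0.0146) and TRAJ58 (-1.62, SE 0.525, adjusted p = 0.0146) rested on 5 and 6 TRAV8 clonotypes. TRAJ49 (-1.12, SE 0.278, adjusted p = 0.00178) rested on 23, TRAJ33 (-0.96, SE 0.288, adjusted p = 0.0141) on 23 and TRAJ56 (-0.93, SE 0.345, adjusted p = 0.0325) on 18. TRAJ57, TRAJ47, TRAJ58, TRAJ49 and TRAJ22 passed in all 19 alternative settings. TRAJ33 lost its call among clonotypes with at least 2 counts (edgeR adjusted p = 0.0502), and TRAJ56 without 1.5 months replicate 2, 5 months replicate 2 or 7 months replicate 5 (adjusted p = 0.0533, 0.0578 and 0.0699). Without TRAV8-2 the difference for TRAJ56 was -1.49, and 18 J genes were called, among them all 14. TRAV8-2 carried 6 of the TRAJ56 clonotypes, so that this removal, chosen after the data were seen, was bound to widen the TRAJ56 difference.

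**Figure D4:**
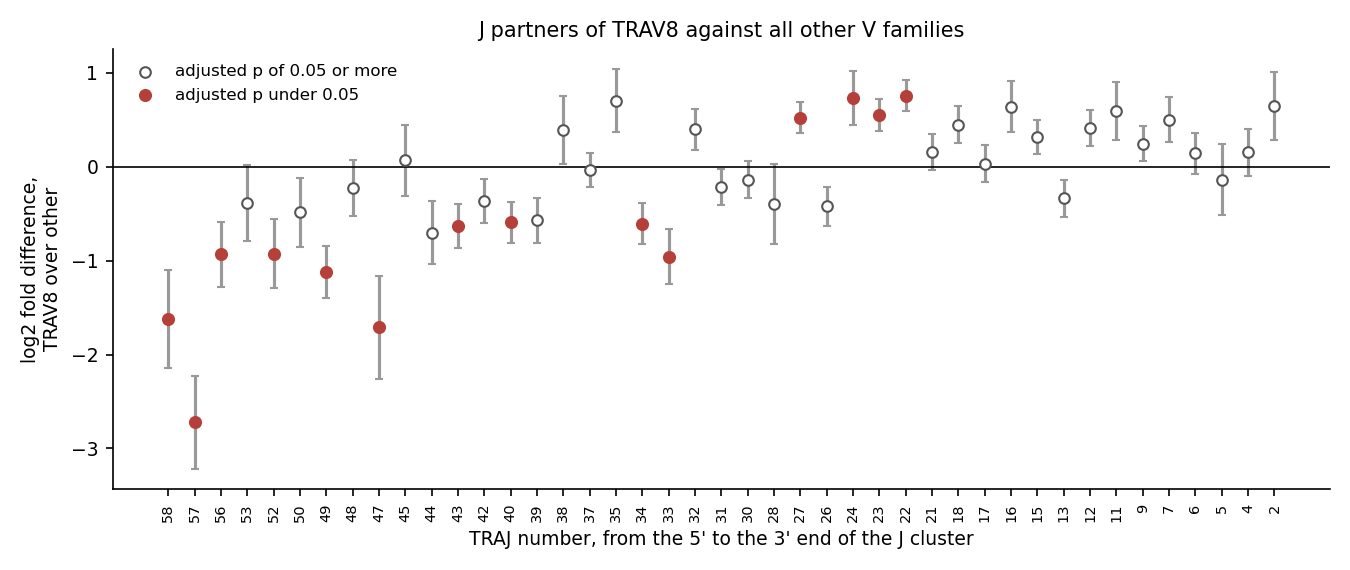
log2 fold difference in clonotype number between TRAV8 and all other clonotypes for the 43 J genes tested, in the order of the J cluster from its 5′ end; bars are standard errors from edgeR, and filled points have an adjusted p under 0.05. The 10 filled points below 0 run from TRAJ58 to TRAJ33, and the 4 above 0 from TRAJ27 to TRAJ22.

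TRAV8 clonotypes were then compared with the rest by size. The mean number of counts per TRAV8 clonotype had a log2 ratio of 0.16 ± 0.326 (SD, n = 13) to that of other clonotypes, above 0 in 8 of 13 samples, and did not pass (adjusted exact permutation p = 0.108). Among clonotypes with at least 2 counts it was 0.21 and passed (adjusted exact permutation p = 0.0413). Leaving out samples gave 0.10 to 0.19, with the lowest value without 1.5 months replicate 2. The ratio turned to -0.028 when the largest TRAV8 clonotype of each sample was left out, an alternative chosen after the data were seen. That removal could only lower the ratio, since the other V families kept their largest clonotypes. The median clonotype was larger in TRAV8, with a log2 ratio of medians of 0.27 ± 0.223 in favour of TRAV8 in 11 of 13 samples (adjusted exact permutation p = 0.00156). Clonotypes with 1 count were also more frequent, with 20.1% ± 6.68 of TRAV8 and 17.0% ± 5.31 of the others (SD, n = 13, higher in TRAV8 in 12 of 13 samples, not tested).

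Of the 2238 TRAV8 clonotypes, 35 exceeded 0.1% of the functional counts of their sample and 4 exceeded 0.5%. Those above 0.1% were 1.65% ± 1.32 of TRAV8 and 1.63% ± 0.499 of other clonotypes (SD, n = 13, higher in TRAV8 in 6 of 13 samples, not tested). The 5 largest are shown with the bases inserted between V and J in capitals, to show how each reads as a TRAV8 end followed by a J start.
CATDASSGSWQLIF (TRAV8D-1, TRAJ22): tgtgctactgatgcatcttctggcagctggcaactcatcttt
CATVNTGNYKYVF (TRAV8-1, TRAJ40): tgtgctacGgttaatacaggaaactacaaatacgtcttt
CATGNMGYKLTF (TRAV8D-2, TRAJ9): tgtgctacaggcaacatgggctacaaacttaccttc
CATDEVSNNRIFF (TRAV8D-1, TRAJ31): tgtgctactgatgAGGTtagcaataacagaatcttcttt
TRAV8D-2, TRAJ2: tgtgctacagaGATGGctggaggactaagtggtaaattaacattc
They had 0, 1, 0, 4 and 5 inserted bases. The first held 6686 counts or 1.39% (95% Wilson interval 1.36 to 1.42) of 7 months replicate 3, where it made up 35.9% of all TRAV8 counts. The second held 1.14% (1.11 to 1.17) of 7 months replicate 5. The third held 0.995% (0.970 to 1.02) of 1.5 months replicate 2, the fourth 0.740% (0.717 to 0.763) of 5 months replicate 1 and the fifth 0.408% (0.392 to 0.425) of 1.5 months replicate 2. The largest at 3 months, a TRAV8-1, TRAJ12 clonotype with 3 inserted bases, held 0.277% of 3 months replicate 2. The first 4 are therefore from 4 different samples and from 3 of the 4 time points.

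These clonotypes differed in where else they were found. The nucleotide sequence of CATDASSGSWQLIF, which has no inserted base, was present in 5 samples, at 0.271% in 7 months replicate 4, 0.267% in 3 months replicate 3, 0.0182% in 5 months replicate 1 and 0.0155% in 3 months replicate 4. In 7 months replicate 1 the same amino-acid sequence was encoded with a TRAV8D-2 end, at 0.0389%. The sequences of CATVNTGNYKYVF and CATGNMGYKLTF were found at no more than 1 count in any other sample, and that of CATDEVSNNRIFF at no more than 2 counts. The TRAV8D-2, TRAJ2 sequence was found in 0 other samples.

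Sharing between samples was counted on the 1607 distinct TRAV8 CDR3 amino-acid sequences. Of these, 1270 (79.0%) were in 1 sample and 337 (20.97%) in 2 or more. The same share was 24.8% over the other V families, each CDR3 counted with its family, and TRAV8 ranked 10th of 19 (range of the others 13.4% to 31.8%). Without 3 months replicate 4, the shares were 18.9% in TRAV8 and 22.7% in the others. Without clonotypes 100 times more abundant in another library, they were 17.7% and 22.2%. In TRAV8, 3 sequences reached 7 or more samples (0.187%), against 583 (1.21%) in the other families. Sequences in all 13 samples numbered 0 in TRAV8 and 17 of 48036 in the other families. Without 3 months replicate 4, those in 7 or more samples were 3 (0.197%) in TRAV8 and 441 (0.971%) in the others. TRAV8 sequences in 5 or more samples then numbered 14 instead of 17. Because a family with more clonotypes has more chances to recur, these shares were not tested against each other.

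The sequences found in most samples are shown in their most widespread nucleotide form.
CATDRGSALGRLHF (TRAJ18): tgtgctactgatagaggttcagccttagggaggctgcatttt
TRAJ27 sequence: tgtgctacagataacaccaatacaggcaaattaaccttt
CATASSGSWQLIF (TRAJ22): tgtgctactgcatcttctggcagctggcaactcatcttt
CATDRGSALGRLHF was in 10 samples, the TRAJ27 sequence, counted over all nucleotide forms of its amino acids, in 9 and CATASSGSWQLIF in 8. Some of these rested on few counts. The TRAJ27 sequence had 2 counts in 7 months replicate 2, and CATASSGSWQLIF had 1 in 1.5 months replicate 1 and 9 in 5 months replicate 1. Each was encoded by 4 different nucleotide sequences, and the forms above have 0 inserted bases. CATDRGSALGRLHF held 0.0403% and 0.00875% of the counts at 1.5 months, 0.0903% and 0.0164% in the 2 samples at 3 months that had it, and 0.0272% in 5 months replicate 1. In the 7-month samples it held 0.0334%, 0.0620%, 0.00914%, 0.0572% and 0.00828%. It was not detected in 3 months replicates 2 and 3 or in 5 months replicate 2. The TRAJ27 sequence was at most 0.0482% in 8 of its 9 samples and 0.171% in 7 months replicate 5. Without 3 months replicate 4 the 3 sequences were in 9, 8 and 7 samples. A further 5 sequences tied at 6 samples, and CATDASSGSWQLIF and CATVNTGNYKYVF had the highest mean shares of these, but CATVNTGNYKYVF had 1 count in 3 of its 6 samples. Without 3 months replicate 4, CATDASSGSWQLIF was in 5 samples and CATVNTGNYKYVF in 6.

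Widely found TRAV8 sequences had fewer inserted bases, counted from the deposited V end, which can lie past the germline end. Nucleotide clonotypes whose amino-acid sequence was in 1 sample had a mean of 2.47 inserted bases, those in 2 to 4 samples 1.61 and those in 5 or more 0.714. Junctions with no inserted base made up 26.7%, 38.5% and 61.9% of these classes, which held 1329, 532 and 42 nucleotide clonotypes. Without 3 months replicate 4 the means were 2.47, 1.57 and 0.703 inserted bases, and the shares without an inserted base 26.6%, 39.1% and 59.5%. The classes were pooled over samples and were not tested. Pairs of samples of the same time point shared a mean of 1.58% ± 1.05 (SD over 18 pairs) of their TRAV8 nucleotide clonotypes, and pairs of different time points 1.81% ± 1.199 (SD over 60 pairs), or 1.65% ± 0.817 over 58 pairs without the 2 pairs that stood apart. Over all functional clonotypes the same means were 3.11% ± 0.562, 3.11% ± 0.957 and 2.95% ± 0.325, and the difference from TRAV8 was not tested. The range over single pairs of TRAV8 was wider than the difference between its means.

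Finally, TRAV8 was followed over time. At 1.5 months TRAV8 made up 2.48% and 2.68% of functional clonotypes. The share was 3.35%, 2.77%, 2.79% and 2.75% at 3 months, 2.88% and 2.71% at 5 months, and 2.82%, 2.82%, 2.77%, 3.25% and 3.07% at 7 months. Both samples at 1.5 months were below all 11 later samples, and the later time points overlapped each other. In edgeR's test over the 19 V families, the log2 fold difference of TRAV8 from 1.5 months was 0.18 (SE 0.104, adjusted p = 0.438) at 3 months, where edgeR called 1 family (5.26%) and DESeq2 0. At 5 months it was 0.12 (SE 0.126, adjusted p = 0.889) and at 7 months 0.16 (SE 0.102, adjusted p = 0.378), where 0 families (0%) were called by edgeR and by DESeq2, and 2 and 3 families passed an unadjusted p of 0.05. From 3 to 7 months it was -0.024 (SE 0.0823, adjusted p = 0.914), again with 0 families called by either tool and 1 with an unadjusted p under 0.05. Its sign turned with library totals (0.0095), without 3 months replicate 1 (0.048) and without 7 months replicate 2 (0.0080). TRAV8 had an unadjusted p of 0.0973 at 3 months and was called in none of the alternatives run for it. Leaving out samples gave 0.12 to 0.23 at 3 months (lowest without 3 months replicate 1), 0.068 to 0.18 at 5 months and 0.11 to 0.21 at 7 months (lowest without 1.5 months replicate 1 in both).

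**Figure D5:**
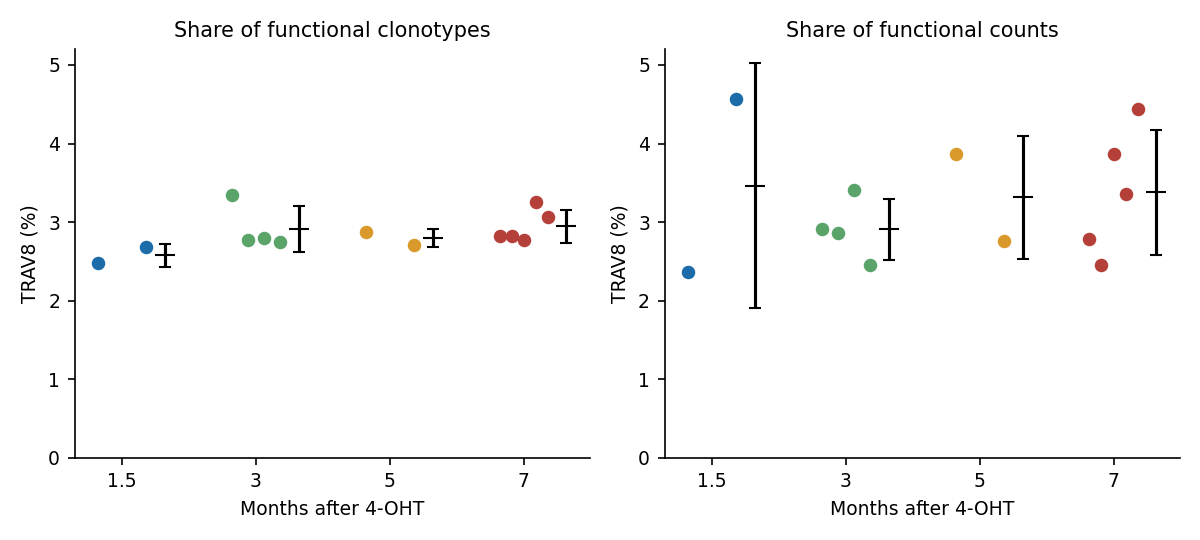
TRAV8 as a share of functional clonotypes (left, %) and of functional counts (right, %) by months after 4-OHT, 1 point per sample, with the mean and SD of each time point in black. The share of clonotypes lies between 2.48% and 3.35%, with both 1.5-month samples lowest, while the share of counts runs from 2.36% to 4.57% and those 2 samples are its extremes.

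Of the 5 genes, 4 passed the filter for low numbers and were tested among 90 single V genes, and TRAV8-2 did not pass it. For single V genes and for J genes within TRAV8, the comparisons of 3 and 5 months with 1.5 months were added after the data were seen. From 1.5 to 3 months the log2 fold difference was 0.53 (SE 0.213, unadjusted p = 0.0173, edgeR adjusted p = 0.223) for TRAV8-1, 0.17 for TRAV8D-1, -0.0088 for TRAV8N-2 and -0.10 for TRAV8D-2. That of TRAV8-1 was 0.35 without 3 months replicate 1. From 1.5 to 7 months the log2 fold difference was 0.31 (SE 0.211) for TRAV8-1, 0.15 (SE 0.207) for TRAV8N-2, 0.092 (SE 0.234) for TRAV8D-2 and 0.076 (SE 0.307) for TRAV8D-1, with edgeR adjusted p-values from 0.704 to 0.973. From 1.5 to 5 months it was 0.47 (SE 0.254, unadjusted p = 0.0741, edgeR adjusted p = 0.597) for TRAV8-1, 0.0057 for TRAV8N-2, -0.0024 for TRAV8D-2 and -0.13 for TRAV8D-1. From 3 to 7 months it was -0.22 (SE 0.163) for TRAV8-1, 0.15 (SE 0.170) for TRAV8N-2, 0.19 (SE 0.195) for TRAV8D-2 and -0.093 (SE 0.248) for TRAV8D-1, with adjusted p-values from 0.865 to 0.932. None of the 90 genes was called by edgeR or DESeq2 at 3, 5 or 7 months against 1.5 months or at 7 against 3 months (0%), and 10, 8, 6 and 1 had an unadjusted p under 0.05.

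Within TRAV8, 9 of 43 J genes had enough clonotypes to be tested between time points. From 1.5 to 3 months edgeR called 1 of them (11.1%), TRAJ32, which was also the 1 with an unadjusted p under 0.05, and DESeq2 called 0. TRAJ32 was found in 2 and 4 TRAV8 clonotypes at 1.5 months, in 19, 13, 6 and 6 at 3 months, in 1 and 1 at 5 months and in 2, 5, 2, 5 and 7 at 7 months. As a share of the TRAV8 clonotypes it was 1.01% and 2.30% at 1.5 months and 7.98%, 8.23%, 3.51% and 3.28% at 3 months. It passed the filter for low numbers only through 3 months replicates 1 and 2, the samples in which it was highest, and without either of them it was not tested. Its call and its folds that involve 3 months are therefore not independent of that filter, and its values are given as a description. With no filter its log2 fold difference from 1.5 to 3 months was 1.70 (edgeR adjusted p = 0.330), and DESeq2 gave 1.78 (adjusted p = 0.9997).

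At 5 and 7 months against 1.5 months and at 7 against 3 months, 0 of the 9 J genes (0%) were called by either tool, with 0, 0 and 1 at an unadjusted p under 0.05. The 1 was TRAJ32 at 7 against 3 months, with a log2 fold difference of -1.05 (edgeR adjusted p = 0.0854). It was called there in 4 alternatives (edgeR adjusted p from 0.0217 to 0.0473), none of which is independent of the filter that its 3-month values let it pass. Without 7 months replicate 1, TRAJ22 was called at 7 against 1.5 months, with a log2 fold difference of -1.30 (edgeR adjusted p = 0.0300).

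As a share of counts, TRAV8 took 2.36% and 4.57% at 1.5 months. It took 2.91%, 2.86%, 3.41% and 2.46% at 3 months, 3.87% and 2.77% at 5 months, and 2.79%, 2.46%, 3.86%, 3.35% and 4.43% at 7 months. The 1.5-month samples were the lowest and the highest of all, so that the means of 3.47% ± 1.56 (n = 2), 2.91% ± 0.390 (n = 4), 3.32% ± 0.783 (n = 2) and 3.38% ± 0.797 (SD, n = 5) did not separate. Relative to 1.5 months the share changed by -0.556, -0.146 and -0.0853 points (exact permutation test, two-sided, corrected for the 3 comparisons, p = 0.761, 0.999 and 1, pooled SD 0.820). Without 1.5 months replicate 2, whose share was 4.57%, these were 0.549, 0.959 and 1.02 points. The sign also turned at 5 months without 5 months replicate 2 (0.408) and at 7 months without 7 months replicate 1 (0.0618) or 2 (0.145).

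In order of time, TRAV8 clonotypes numbered 186 ± 16.97 (n = 2), 187.5 ± 35.2 (n = 4), 143 ± 16.97 (n = 2) and 166 ± 17.9 (SD, n = 5). The mean changed by 1.5, -43 and -20 clonotypes against 1.5 months (exact permutation p = 0.9996, 0.238 and 0.616). The sign of the first turned without 1.5 months replicate 2 (-10.5), without 3 months replicate 1 (-15.3), at equal depth (-1.25) and without clonotypes far larger in another library (-3.75). The inverse Simpson index of the TRAV8 clonotypes, which is low when few of them hold most counts, was 90.9 and 15.4 at 1.5 months and ran from 39.6 to 93.8 at 3 months. It was 19.3 and 46.7 at 5 months and from 7.37 to 84.2 at 7 months, with differences of 9.49, -20.1 and -10.5 (exact permutation p = 0.953, 0.835 and 0.937). Their signs rested on single libraries: the first was -28.2 without 1.5 months replicate 2 and -0.913 without 3 months replicate 1, and the others were 17.6 and 27.2 without 1.5 months replicate 1. The lowest values, 7.37, 12.2 and 15.4, belonged to the samples with the 3 largest TRAV8 clonotypes. The mean CDR3 length was 12.97 ± 0.121 (n = 2), 12.98 ± 0.130 (n = 4), 13.04 ± 0.0195 (n = 2) and 13.01 ± 0.0810 (SD, n = 5) residues in order of time, and its differences from 1.5 months were 0.00828, 0.0740 and 0.0429 residues (exact permutation p = 0.999, 0.788 and 0.914). Without 1.5 months replicate 2 they were -0.0770, -0.0113 and -0.0423 residues. Adjusted over these 12 comparisons, all p-values were 1. The pooled SD within time points was 24.9 clonotypes and 32.05 index units, and 1.5 and 5 months had 2 samples each, so that shifts of a few clonotypes could not be detected here.

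Last, the share of TRAV8 among functional clonotypes was compared with that among non-functional ones of the same samples, which carry rearrangements that cannot be selected as receptors. TRAV8 made up 2.86% ± 0.237 of functional and 3.37% ± 0.756 of non-functional clonotypes (SD, n = 13). The difference of -0.511 ± 0.719 points was negative in 11 of 13 samples (adjusted exact permutation p = 0.0285). Without TRAV8-2, in an alternative chosen after the data were seen, the shares were 2.76% ± 0.234 and 2.63% ± 0.732. The difference was then 0.134 ± 0.721 points, positive in 8 of 13 samples (adjusted exact permutation p = 0.541). Since 54.2% of TRAV8-2 clonotypes were non-functional, that removal was bound to raise the difference. The call was also lost without 3 months replicate 3 (adjusted exact p = 0.0519), and without 3 months replicate 4, 7 months replicate 3 or 7 months replicate 5 (adjusted exact p = 0.0569 for each).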

How the data were processed

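Per the labels and the study's methods, TCRα transcripts were amplified by 5′ RACE and sequenced, and the authors assembled clonotypes with MiXCR and processed them with VDJtools (GRCm38). The deposited tables give a raw count per clonotype; whether counts are reads or molecules is not given in the sources used here. The deposited fraction of each clonotype was not used in any test. The deposited V end and J start positions gave V-derived and inserted bases. Total counts per sample were 509818 to 936831; intervals and the floor of 3 counts cover counting error only. Non-functional clonotypes were removed except where stated.

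The members, gene lists and tests were chosen with earlier results of these data known. Clonotype numbers per V family, V gene and J gene were tested in R 4.3.3 with edgeR 4.0.16 (quasi-likelihood test after filterByExpr and TMM, all groups in 1 model, Benjamini-Hochberg over all features), with DESeq2 1.42.0 as an alternative; TRAV8 was compared with other clonotypes with the sample as a term. Other tests were exact sign flips over the 13 within-sample differences, or exact permutations of the time points over 540540 arrangements with the maximum statistic over 3 comparisons, in Python 3.11.15 (numpy 2.4.6, pandas 2.3.3, scipy 1.17.1). Intervals for shares were 95% Wilson or exact binomial. Code was tested on simulated data. Alternatives were DESeq2, library totals, no filter, a minimum of 2 counts, distinct CDR3 amino-acid sequences, removal of clonotypes for which another library held 100 times or more the share, equal depth at 477052 counts, a replicate block, and each sample left out. Named were all TRAV8 genes, up to 6 J genes each way by fold among those called, the 5 largest clonotypes, the largest of each time point and the 5 most widespread CDR3 sequences, with ties broken by mean share. V germline sequences and positions came from GENCODE vM21. Figures were drawn with matplotlib 3.10.9.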

Additional observations from a re-analysis of the deposited data

Results flagged for a closer look

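Among 32 groups of 4 or 5 samples examined for a value far from the rest (about 1 in 20 would be picked by chance), 2 were found. That number is close to the rate by chance, and the 2 are given as a description. TRAV8 made up 3.35% of the functional clonotypes of 3 months replicate 1, while the other 3 samples of that time point lay between 2.75% and 2.79%; the gap was 0.924 of the range of the group. This library also had the most TRAV8-1 clonotypes (107, or 45.0% of its TRAV8 clonotypes). TRAV8-2 made up 8.33% of the TRAV8 clonotypes of 7 months replicate 3 (13 of 156), while the other 4 samples at 7 months lay between 2.66% and 3.50%; the gap was 0.852 of the range. The same library held the largest TRAV8 clonotype.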

How the results depend on the processing

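The tested differences in CDR3 length, CDR3 bases from V, net charge and 5′ J use kept their sign and their call with at least 2 counts, with distinct CDR3 sequences, without clonotypes far larger in another library, without TRAV8-2, without the largest TRAV8 clonotype and with each sample left out, with ranges over the samples left out of -0.523 to -0.495 residues, -1.43 to -1.34 bases, -0.360 to -0.334 and -8.67 to -7.77 points. The count of J genes called against other clonotypes stayed between 10 and 18.

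With at least 2 counts, the difference in inserted bases was -0.0652 and no longer passed, the clone size ratio was 0.21 and passed (adjusted exact permutation p = 0.0413), and the CDR3 length at 7 against 1.5 months was -0.0042 residues. The ratio of median sizes, 0.27, also passed. The clone size ratio was -0.028 without the largest TRAV8 clonotype, a removal that could only lower it. Without TRAV8-2, a removal that was bound to raise it, the functional share minus the non-functional share was 0.134. With TRAV8-2 kept, leaving out samples gave -0.629 to -0.407, and 4 of 13 ended the call of -0.511.

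In the time course the TRAV8 family share, clonotype number, share of counts, inverse Simpson index and CDR3 length passed in no setting, and the signs of several differences turned; the cause was not tested. For the family at 7 against 3 months, library totals gave 0.0095 on the log2 scale, and leaving out samples gave -0.053 to 0.048. Clonotype number at 3 against 1.5 months was -1.25 at equal depth and -3.75 without clonotypes far larger in another library, under which CDR3 length was -0.0096. Leaving out samples gave -15.3 to 13.5, -55 to -31 and -32 to -8 clonotypes at 3, 5 and 7 months; -1.66 to 0.549, -1.25 to 0.959 and -1.19 to 1.02 points of counts; -28.2 to 47.2, -57.9 to 17.6 and -48.3 to 27.2 index units; and -0.0770 to 0.0935, -0.0113 to 0.159 and -0.0423 to 0.128 residues. Leaving out either 1.5-month sample leaves 1, assumed to vary like the other groups. J genes called within TRAV8 numbered 0 to 1 at 7 against 1.5 months and 0 to 1 at 7 against 3 months as samples were left out, and 1 at 7 against 3 months both without clonotypes far larger in another library and with the replicate block. At 3 against 1.5 months, a comparison added after the data were seen, they numbered 0 in DESeq2, with no filter and with at least 2 counts, and 0 to 1 as samples were left out (TRAJ32 is the 1 here and at 7 against 3 months, and it passed the filter only through its 3-month values). Pairwise differences called between genes numbered 3 to 5 as samples were left out.

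Same-numbered samples shared only a number: the mean correlation of their deviations over 19 V families was -0.0611 over 14 pairs, and 2 of 12 samples correlated best with their own number. In a fit with a replicate block, the inverse Simpson difference at 7 months was 9.07, and 1 TRAV8 gene, TRAV8-1, was called at 3 against 1.5 months (log2 fold difference 0.72, edgeR adjusted p = 0.0446).

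TRAV8-2 had 0 to 13 clonotypes per sample, and no value of it or of a single J gene was recomputed at equal depth. The V name limits every single-gene value.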
